A study of Mus musculus with 3 samples.

Results

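The Tshz genes, Tshz1, Tshz2 and Tshz3, are the mouse members of the teashirt family, and the peaks examined here are those that the authors' annotation gave to one of them. They were taken as the rows of the 2 deposited peak lists whose gene name is Tshz1, Tshz2 or Tshz3. This gave 30 of the 16113 peaks in the list for the nucleoporin Seh1 and 0 of the 5314 peaks in the list for IgG, an antibody without a chromatin target that serves as background control. The lists come from ChIP-seq (sequencing of immunoprecipitated chromatin) of wild-type primary neural stem cells, cultured from the cortex of newborn mice (postnatal day 0) and kept proliferating in growth medium with EGF and bFGF. All groups shared this genotype and treatment, and a fixation of 10 min in 1% formaldehyde. Each group (Seh1, IgG and an input of chromatin that was not precipitated) had 1 library. No value therefore has a replicate error, and no test compares the groups. The lists hold no expression values, so the cell type could not be checked against markers, and the read depth behind a peak is unknown.

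Teashirt proteins are nuclear proteins with widely spaced zinc fingers, related to the teashirt protein that patterns the trunk of the fly. In vertebrates they act mostly as transcriptional repressors and carry a homeobox-like domain as well. In the brain, Tshz1 is known for olfactory bulb interneurons, Tshz2 marks a class of deep-layer cortical neurons, and Tshz3 is needed for cortical projection neurons and their striatal connections. Seh1 is a scaffold subunit of the nuclear pore, and the ChIP-seq was made to find where it lies on chromatin.

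These genes were chosen by their peak counts in the Seh1 and IgG lists, which are therefore given as a description. Tshz3 was given 16 Seh1 peaks, Tshz2 was given 9 and Tshz1 was given 5. All 3 genes were given 0 IgG peaks, where a count of 0 allows up to 0.0565% of the IgG list (3 counts). The share of the Seh1 list was 0.0993% for Tshz3, 0.0559% for Tshz2 and 0.0310% for Tshz1. The limit of 0.0565% is near the Seh1 share of Tshz2 and above that of Tshz1. It is below that of Tshz3, but the genes were chosen by these counts, so this is not a test of a difference. Limits and intervals cover counting error only. As background, 1 or more Seh1 peaks were given to 31.9% of 21775 protein-coding genes and 1 or more IgG peaks to 11.3% of them. At least as many Seh1 peaks as Tshz1, Tshz2 and Tshz3 were given to 1.63%, 0.184% and 0.0184% of these genes. The last share stands for 4 genes, of which the other 3 (Gm21119 with 50 Seh1 peaks, 5730507C01Rik with 22 and Gm21190 with 18) were also given 55, 3 and 9 IgG peaks. Tshz3 was the 1 gene with at least 16 Seh1 and no IgG peaks, or 0.00459% of protein-coding genes.

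None of these peaks lay at a promoter. The promoters of the 2 members in the RefSeq promoter table (GRCm38.p6, the assembly of mm10) are shown because they differ in kind. Each window runs from 250 bases before to 50 bases after the annotated start, on the plus strand, with every CG in capitals. The CG dinucleotide reads the same on both strands and is dense in CpG island promoters.
Tshz3, chr7:36697868-36698167: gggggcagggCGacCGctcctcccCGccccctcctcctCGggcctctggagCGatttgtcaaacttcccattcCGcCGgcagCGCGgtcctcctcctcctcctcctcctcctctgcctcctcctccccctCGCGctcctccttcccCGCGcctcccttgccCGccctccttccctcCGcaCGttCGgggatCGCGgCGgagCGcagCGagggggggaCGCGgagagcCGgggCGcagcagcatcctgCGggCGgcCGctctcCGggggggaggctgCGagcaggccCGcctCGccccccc
Tshz2, chr2:169632259-169632558: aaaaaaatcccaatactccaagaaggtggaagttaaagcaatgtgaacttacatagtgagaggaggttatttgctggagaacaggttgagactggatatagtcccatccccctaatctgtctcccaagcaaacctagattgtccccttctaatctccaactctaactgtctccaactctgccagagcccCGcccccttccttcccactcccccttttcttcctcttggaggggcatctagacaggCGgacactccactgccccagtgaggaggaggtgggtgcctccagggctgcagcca

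The Tshz3 window held 33 CG and 76.0% G and C, and 8.27% of 27025 RefSeq starts had as many CG in the same window. The Tshz2 window held 2 CG and 52.0% G and C, and 85.4% of starts had as many. Neither window overlapped a Seh1 or an IgG peak. The median distance of a protein-coding start to the nearest Seh1 peak was 53.2 kb, so a window without a peak is usual. The share of all windows without one was not counted. No peak sequence was used, so nothing is said of the letters under the peaks.

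Around Tshz3 the Seh1 peaks formed a broad scatter on both sides of a gene that held none. The gene spans 75.4 kb of chromosome 7, from 36698118 to 36773553, on the plus strand. Of its 16 peaks, 6 lay upstream of the transcription start site (TSS) and 10 lay downstream, beyond the 3′ end. The authors classed all 16 as intergenic. Upstream, the peak farthest from the TSS lay at 388 kb (36310344 to 36310751, 408 bp wide), and the next lay at 318 kb (36380341 to 36380694, 354 bp). The other 4 upstream peaks lay at 188, 138, 116 and 43.1 kb. The last of these, from 36654926 to 36655168, was the Tshz3 peak nearest to the TSS and had the minimum width of the list, 243 bp. It lay inside Gm36722, a predicted gene that overlaps the start of Tshz3.

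Downstream of Tshz3 the first peak lay 108 kb from the TSS (36805570 to 36805813, 244 bp). A second one followed at 111 kb (36809366 to 36809669, 304 bp), so that the downstream set opened with its closest pair. Further peaks lay at 142, 201, 277, 311, 380, 395, 447 and 531 kb. The peak at 380 kb, from 37077903 to 37078442, was the widest of the gene with 540 bp. The peak at 395 kb lay inside the long non-coding RNA gene Gm36830, and that at 447 kb (37144504 to 37144947, 444 bp) inside the long non-coding RNA gene Gm28075. With Gm36722, this made 3 of the 16 peaks whose centre lay in a gene of the RefSeq table, although the authors' class for each was intergenic.

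**Figure D1:**
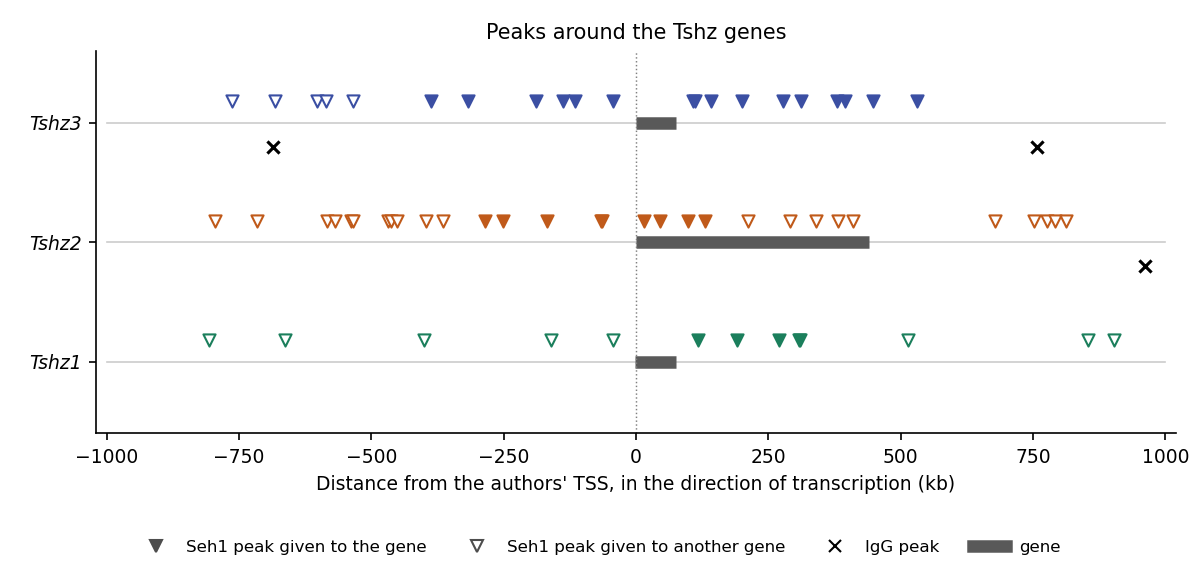
Peaks from 1000 kb before to 1000 kb after the TSS of each Tshz gene, drawn in the direction of transcription (x axis in kb); filled triangles are Seh1 peaks given to the gene, open triangles are Seh1 peaks given to other genes, crosses are IgG peaks and grey bars are the genes. Tshz3 and Tshz1 hold no peak in the gene, whereas the longer Tshz2 holds 9, of which 5 are open.

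The reach of the annotation differed between the genes. A peak is given to the nearest TSS, so a gene collects peaks up to the midpoints to its neighbours. Measured to the TSSs that hold the next peak of either list, this reach was 983 kb for Tshz3, 492 kb for Tshz2 and 381 kb for Tshz1. The order of the counts followed the order of the reach. A neighbouring TSS that was given no peak is skipped here, so this reach depends on the peaks and can exceed that of the annotation. Per Mb of reach there were 16.3 Seh1 peaks for Tshz3, 18.3 for Tshz2 and 13.1 for Tshz1. The outermost Tshz3 peak, at 531 kb, lay 5.20 kb inside the midpoint to Zfp536, and the next peak of either list on that side, an IgG peak, lay 221 kb past the midpoint. On the other side the last Tshz3 peak lay 60.0 kb inside the midpoint to Zfp507, and the first peak given to Zfp507 lay 87.9 kb past it.

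Tshz2 is the long gene of the family, spanning 440 kb of chromosome 2 from 169632509 to 170072751 on the plus strand. Upstream it had 5 peaks, all intergenic, at 286, 252, 169, 66.2 and 64.5 kb from the TSS. The peak at 169 kb, from 169463496 to 169463951, was its widest with 456 bp and lay inside the long non-coding RNA genes Gm34112 and Gm14249. The other 4 peaks lay in the first intron, at 14.7, 46.0, 98.2 and 130 kb. The one at 14.7 kb, from 169647056 to 169647343, was the nearest of all 30 peaks to its TSS.

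The gene body of Tshz2 held more Seh1 peaks than it was given. A further 5 peaks with their centre inside the gene, 212 to 410 kb from its TSS, were given to the non-coding genes AY702102 (4 peaks) and A630075F10Rik (1 peak), whose starts lie within Tshz2. In all 9 Seh1 peak centres lay in the gene, a number reached by 4.46% of protein-coding genes of 300 to 600 kb. Tshz3 and Tshz1 had 0 peak centres in the gene, as did 61.6% of protein-coding genes of 50 to 100 kb.

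Tshz1, on the minus strand of chromosome 18, spans 76.1 kb from 84011627 to 84087708. Its 5 peaks were intergenic and all lay downstream, beyond the 3′ end, at 117, 190, 271, 307 and 310 kb from the TSS. The peak at 307 kb, from 83778980 to 83779527, was the widest of all 30 with 548 bp. Upstream, the nearest Seh1 peak lay 44.2 kb from the TSS of Tshz1, from 84130491 to 84130764. It was given to Zadh2, which encodes a prostaglandin reductase and starts next to Tshz1.

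Counted without regard to the gene they were given to, the order changed. Within 500 kb of the TSS lay 19 Seh1 peaks for Tshz2, 15 for Tshz3 and 8 for Tshz1. Of these, 10 were given to other genes at Tshz2, 0 at Tshz3 and 3 at Tshz1. The median over 17491 protein-coding starts was 7 (5th to 95th percentile 1 to 16). As many peaks lay within 500 kb of 1.90% of starts for Tshz2, 7.38% for Tshz3 and 48.4% for Tshz1. These starts exclude chromosome 18, and neighbouring starts share peaks. At Tshz2, 5 of the 10 lay upstream of its own 5 peaks, at 364 to 468 kb from its TSS, and were given to the non-coding gene 1700017J07Rik.

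**Figure D2:**
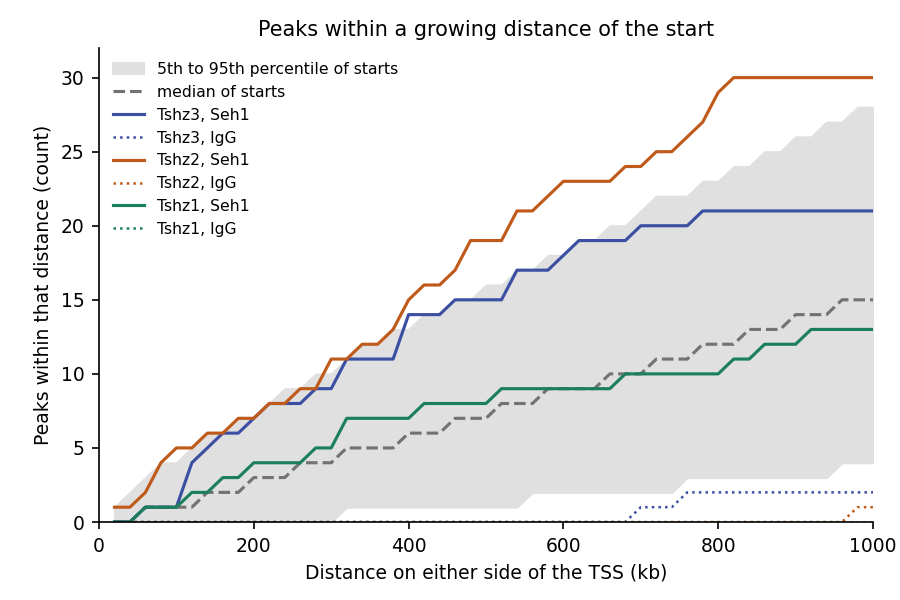
Number of peaks (y axis) within a growing distance on either side of the TSS (x axis, kb), solid for Seh1 and dotted for IgG, beside the median (dashed) and the 5th to 95th percentile (grey) of Seh1 peaks around 17491 protein-coding starts. At 500 kb Tshz2 reaches 19, Tshz3 reaches 15 and Tshz1 reaches 8 Seh1 peaks, and each has 0 IgG peaks.

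Per length, the order of Tshz3 and Tshz2 depended on the region and the peaks counted. The territory of a gene was taken as its span and the gaps up to the midpoints to its protein-coding neighbours with a curated transcript, a definition chosen after seeing the data. It measured 795 kb for Tshz3, 797 kb for Tshz2 and 579 kb for Tshz1, and held 12, 14 and 6 Seh1 peaks and no IgG peak. This gave 15.1 peaks per Mb for Tshz3, 17.6 for Tshz2 and 10.4 for Tshz1, against a median of 3.06 over 1086 genes with a territory of at least 500 kb. With neighbours of any gene type as bounds, Tshz3 had 20.6 peaks per Mb (3 peaks in 146 kb) and Tshz2 had 19.6 (9 peaks in 459 kb). A further count took only peaks wider than the minimum width, in territories bounded by any protein-coding neighbour. Tshz3 then had 14.4 (5 peaks in 348 kb) and Tshz2 had 13.8 (11 peaks in 797 kb). Tshz1 was the lowest of the 3 under each definition. Among these 1086 genes, 2.85%, 1.57% and 7.64% reached the values of Tshz3, Tshz2 and Tshz1. By peaks given, 72.9% of them had at least 1 Seh1 peak and 47.2% had no IgG peak, while 0.184%, 1.93% and 12.5% had at least as many Seh1 peaks as Tshz3, Tshz2 and Tshz1. When each peak was given to the nearest such gene by its span, the counts were 12 for Tshz3, 14 for Tshz2 and 6 for Tshz1, which puts Tshz2 above Tshz3. That count changes both the rule, from TSS to span, and the genes that can be given a peak. Adding only the peaks inside the gene that went to other genes left Tshz3 at 16 and Tshz2 at 14.

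Intervals without peaks surrounded each start. From the last Seh1 peak before the start to the first one after it, the centres lay 151 kb apart at Tshz3, 79.2 kb at Tshz2 and 161 kb at Tshz1. Such intervals are common, with a median of 244 kb over protein-coding starts. At least as long an interval surrounded 70.5% of starts for Tshz3, 88.0% for Tshz2 and 67.9% for Tshz1. IgG peaks were farther away. The nearest lay 686 kb from the TSS of Tshz3, 962 kb from that of Tshz2 and 1690 kb from that of Tshz1. The interval between IgG peaks around the start was 1.44 Mb at Tshz3, 3.61 Mb at Tshz2 and 3.62 Mb at Tshz1, and it held 20, 43 and 25 Seh1 peaks. At least as long an interval was found around 46.5%, 16.8% and 16.7% of starts, and 33.6% of starts had no IgG peak within 500 kb. A start without nearby IgG peaks was thus common, and the whole IgG list was 33.0% as long as the Seh1 list.

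Along Tshz3 the spacing of the peaks was uneven. The 15 distances between consecutive centres ran from 3.83 to 151 kb with a median of 58.4 kb, and over the whole Seh1 list the median was 80.6 kb. The longest one was the interval that holds the gene, and the next was 129 kb between the second and the third upstream peaks. Of the distances across the genome, 68.4% were shorter than 151 kb and 5.09% were shorter than 3.83 kb. Tshz2 had a median spacing of 43.4 kb (1.68 to 103 kb, 8 distances) and Tshz1 had 54.8 kb (2.63 to 80.9 kb, 4 distances). The genes were chosen by their peak counts, and only distances between peaks given to the same gene were taken. The list median takes every distance, also those between genes. The shorter medians of the members are therefore not independent of how the peaks were chosen. Each gene held 1 pair of peaks under 5 kb apart, at distances that 2.19% to 5.09% of all consecutive peaks lay below. It was also the only pair of each gene under 10 kb. Over the whole Seh1 list 11.6% of distances were under 10 kb, so a close pair is not particular to these genes. No peaks of a member lay within 1 kb of each other.

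**Figure D3:**
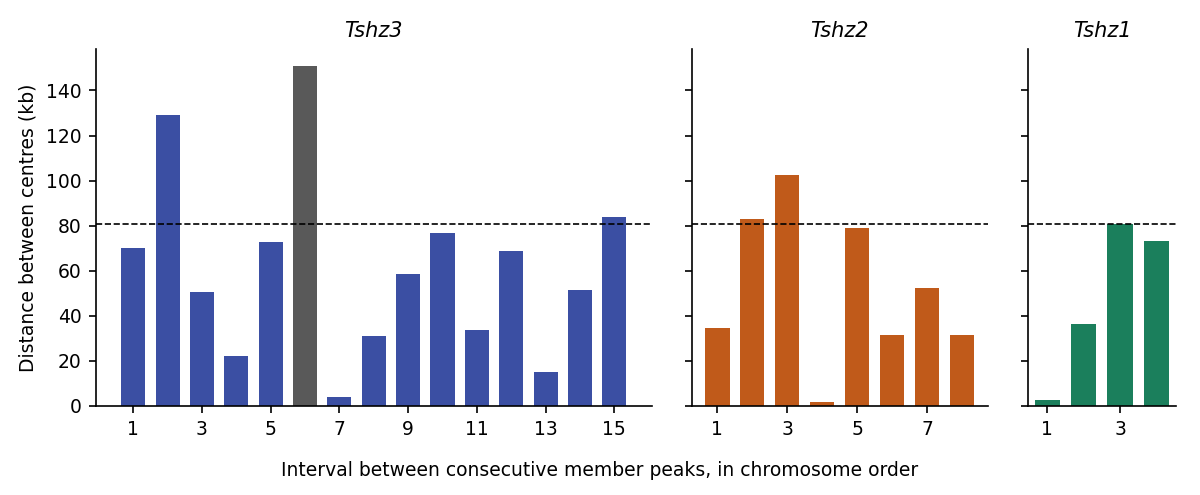
Distance between the centres of consecutive Seh1 peaks given to each gene (y axis, kb), in chromosome order (x axis); the dark grey bar is the interval that holds Tshz3 and the dashed line is the median of the whole list, 80.6 kb. Tshz3 runs from 3.83 to 151 kb, and each gene has 1 bar under 5 kb.

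Beyond the outermost Tshz3 peaks the sides differed. Towards Zfp507 the next Seh1 peak followed after 148 kb (36162498 to 36162740). Towards Zfp536 it followed after 550 kb (37778882 to 37779186), and 94.0% of all distances in the list were shorter. This stretch holds the whole span of Zfp536, 456 kb with 0 Seh1 peak centres. Zfp536, a zinc finger gene that restrains neuronal differentiation, was given 5 Seh1 peaks, of which the nearest lay 9.28 kb upstream of its TSS, and 1 IgG peak. Zfp507, also a zinc finger gene, was given 5 Seh1 peaks and 1 IgG peak. Zinc finger genes also neighbour the other members. Zfp64, on the far side of the Tshz2 upstream gap, was given 1 Seh1 peak, Zfp217 after Tshz2 was given 0, and Zfp516, beyond the 3′ end of Tshz1, was given 0. None of these 3 was given an IgG peak. Zadh2 was given 2 Seh1 and 0 IgG peaks. By curated territory these neighbours were less sparse. Zfp64 had 23.7 Seh1 peaks per Mb (11 peaks in 464 kb), above the 17.6 of Tshz2. Zfp516 had 9.90 (7 peaks in 707 kb), near the 10.4 of Tshz1. Zfp536 had 11.0 and Zfp507 had 10.3, below the 15.1 of Tshz3. Zadh2 had 15.5, from 1 peak, and the territory of Zfp217 held 0.

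The peaks lay far from the start. Over 100 kb from the TSS were 15 of 16 Tshz3 peaks, 4 of 9 Tshz2 peaks and 5 of 5 Tshz1 peaks. Together these were 80.0% of the 30 (95% exact binomial interval 61.4 to 92.3%), and 25.0% of the whole Seh1 list. The median distance was 239 kb for Tshz3, 98.2 kb for Tshz2 and 271 kb for Tshz1. In the list it was 37.8 kb for all peaks and 53.5 kb for intergenic peaks. Within 10 kb of the TSS lay 0 of 30 and 18.1% of the list. Intergenic peaks were 26 of 30, or 86.7% (69.3 to 96.2%), and 54.3% of the list. A gene with wide gaps around it is given distant and intergenic peaks by the nearest-TSS rule, so these shares are not independent of how the peaks were chosen.

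Repeat labels were at 7 of the 30 peaks, or 23.3% (9.93 to 42.3%). A repeat label at the centre was found for 3 of 16 Tshz3 peaks (18.8%, 4.05 to 45.6%), 3 of 9 Tshz2 peaks and 1 of 5 Tshz1 peaks. In the Seh1 list 39.8% of all, 43.7% of intron or intergenic and 51.1% of intergenic peaks had one. All Tshz3 peaks were intergenic, whereas the 30 include 4 intron peaks. The intervals treat peaks of the same gene as independent and cover counting error only. A difference from these shares was not tested. The Tshz3 repeats were a ZP3AR satellite at 138 kb upstream and the B4-family SINEs B4A at 43.1 kb upstream and ID_B1 at 395 kb downstream. ZP3AR was looked at after its value was seen. It was at 15 Seh1 peaks in all, 8 of them on chromosome 7, and at 0 IgG peaks, which allows up to 0.0565% of that list. The B4 family was at 2.46% of all Seh1 peaks. At Tshz2 the labels were the L1 element Lx8, a CACG simple repeat and the B4-family RSINE1, and at Tshz1 the long terminal repeat RMER17B of the ERVK family. The other 23 peaks had no repeat label, by the authors' annotation of their centres.

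Peak widths were near those of the list. The deposited scores were 0 for every peak, so width is the one measure of size. Tshz3 peaks had a median of 277 bp (243 to 540), Tshz2 peaks 274 bp (243 to 456) and Tshz1 peaks 272 bp (243 to 548), against 266 bp in the Seh1 list. The minimum of 243 bp was reached by 3, 2 and 1 of them, or 20.0% of the 30 (7.71 to 38.6%), and by 27.2% of the list. Wider than 95% of the list were 3 peaks, 1 of each gene. The 5 widest Tshz3 peaks had 354 to 540 bp and carried no repeat label. They lay 318 and 388 kb upstream and 311, 380 and 447 kb downstream, and the 11 narrower peaks lay between 43.1 and 531 kb from the TSS.

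**Figure D4:**
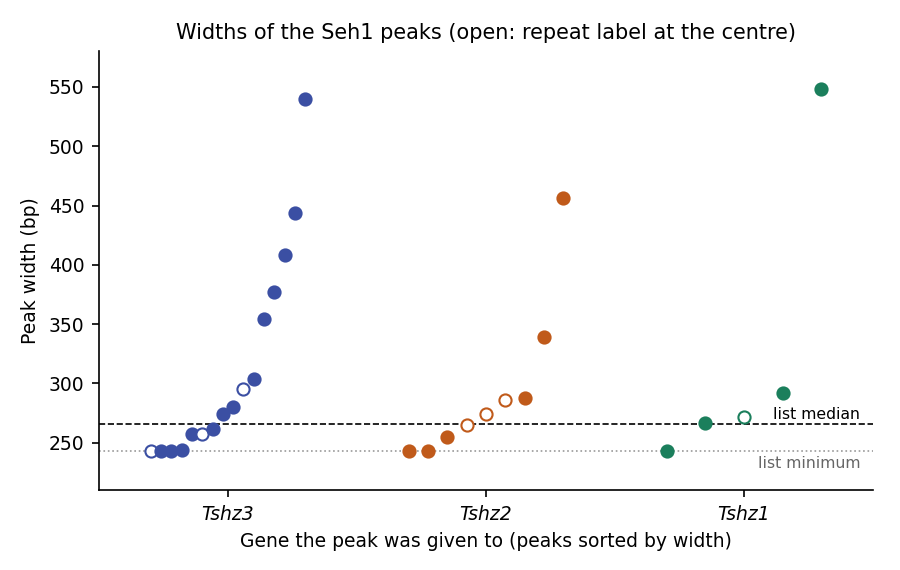
Width of each Seh1 peak (y axis, bp) given to Tshz3, Tshz2 and Tshz1, sorted by width within the gene; open circles have a repeat label at the centre, the dashed line is the list median of 266 bp and the dotted line the minimum of 243 bp. The widest peak of each gene (540, 456 and 548 bp) carries no repeat label.

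The protein-coding genes most like Tshz3, by the number of Seh1 peaks among genes with 0 IgG peaks in 1 library each, were 4930591A17Rik with 15, Lrfn2, Gm20736 and Gm20822 with 12 each, and Cdh26 with 11. Lrfn2, which encodes a synaptic adhesion protein, held 5 Seh1 peak centres inside the gene, and its nearest peak lay 1.89 kb downstream of its TSS, in an intron. Cdh26, a cadherin gene, had its nearest peak 50.9 kb downstream. 4930591A17Rik spans 1.95 kb, with its nearest peak 2.73 kb upstream. Gm20736 and Gm20822 lie on the Y chromosome among near-identical copies, so the gene that their peaks mark is uncertain. Per Mb of curated territory, Tshz3 with 15.1 Seh1 peaks was not the highest. 4930591A17Rik had 31.3 (15 peaks in 479 kb), Lrfn2 had 30.3 (16 in 527 kb) and Cdh26 had 21.0 (11 in 524 kb). Gm20822 had 4.37 (5 in 1150 kb), and the curated territory of Gm20736 held 0.

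Other zinc finger homeobox genes were each given fewer Seh1 peaks than Tshz3 and Tshz2. Of 11 such genes, 4 (36.4%) were given a Seh1 peak, near the 31.9% of all protein-coding genes, with a median of 0 in both. They were Zhx2, a repressor known from the liver, with 6, Zeb1 with 5, Zfhx3 with 2 and Zeb2 with 1. Zeb1 and Zeb2 encode repressors that drive epithelial-mesenchymal transition. Zfhx2, Zfhx4, Zhx1, Zhx3, Adnp, Adnp2 and Homez were given 0. Zeb2 was given 3 IgG peaks and was the 1 gene of this list with any. Per length of curated territory the order differed: Zhx2 had 29.8 peaks per Mb (8 peaks in 269 kb), above the 17.6 of Tshz2 and the 15.1 of Tshz3, and Zeb1 had 11.4, above the 10.4 of Tshz1. The territory of Zfhx4, a gene given 0 peaks, held 6, as many as that of Tshz1, in 1050 kb. Adnp had 14.9 per Mb and Zhx3 had 9.40, each from 1 peak, Zfhx3 had 7.28 and Zeb2 had 1.49. The territories of Zfhx2, Zhx1, Adnp2 and Homez held 0. As at Tshz2, Zfhx3 held more peaks than it was given, with 6 Seh1 peak centres in its 682 kb.

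A second list held 10 genes linked to Tshz proteins as partners, co-repressors or targets. Of these, 4 (40.0%) were given a Seh1 peak, near the 31.9% of all protein-coding genes, also with a median of 0. They were Ctbp1 and Ctbp2, which encode co-repressors, and Bcl11b, which encodes a transcription factor of corticospinal neurons, with 2 peaks each, and the histone deacetylase gene Hdac2 with 1. Hdac2 was also given 1 IgG peak. Apbb1, Set, Hdac1, Sox9, Myocd and Casp4 were given 0. The curated territory of Bcl11b, 1060 kb long, held 19 Seh1 peaks, more than the 14 of Tshz2 and the 12 of Tshz3, at 17.9 per Mb. Those of Ctbp1 and Ctbp2 held 2 and 5, at 27.7 and 13.6 per Mb, and that of Hdac1 held 1 peak in 29.5 kb. The remaining genes of the list were lower. Sox9 had 4.60 per Mb (5 peaks in 1090 kb) and Myocd had 3.22 (1 peak in 311 kb). The territories of Hdac2, Apbb1, Set and Casp4 held 0. The nearest peaks lay 5.58 kb from the TSS of Ctbp1, 14.5 kb from that of Ctbp2, 23.9 kb from that of Bcl11b and 78.6 kb from that of Hdac2.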

How the data were processed

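ChIP-seq peak lists of the Seh1 and the IgG library were analysed. Their names pair each with the input, which was not used separately. Annotation by the authors used annotatePeaks.pl of HOMER with mm10, per the file headers, and gave each peak a class, the nearest RefSeq TSS, its signed distance in bp and its gene. Apart from peaks with no class, repeat labels stand only at intron and intergenic peaks. The submitters' processing notes name Bowtie2 and HOMER and list human builds. For the peak caller, its threshold and multiply mapped reads, the sources used here say nothing. The score deposited by the authors was 0 for every peak, so depth and height are unknown.

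Peaks were taken by the authors' gene name and positions are those of the files, 1-based. Genes came from RefSeq GRCm38.p6 (49599 genes on placed chromosomes, 21775 protein-coding) without the genes placed below 3 Mb, except on Y, whose coordinates belong to patches. A curated gene has an NM transcript. Gene identifiers matched this table for 15969 of 16033 Seh1 and 5173 of 5248 IgG peaks with a gene name. Starts came from the RefSeq promoter table, 1 per gene. Intervals of shares are 95% exact binomial (Clopper-Pearson), and a count of 0 has a limit of 3 counts. No test was made, as each group had 1 library and the members were chosen for their counts. The members, the lists and the rule for named genes (members, protein-coding neighbours, the 5 genes without IgG peaks nearest to Tshz3 in count, and 2 gene lists) were chosen with earlier results of these data known. Counting functions were tested on simulated data. Python 3.11.15, pandas 2.3.3 and scipy 1.17.1 were used.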

Additional observations from a re-analysis of the deposited data

How the results depend on the processing

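Over 43 alternatives to 11 results, 38 stayed within 1.5 times the reported value, or within its interval for the repeat share, and 5 did not. The Tshz2 count of 9 Seh1 peaks was 19 within 500 kb of the TSS, 14 with the peaks inside the gene that were given to other genes, and 14 by the nearest curated gene. The Tshz1 count of 5 was 8 within 500 kb of the TSS. The density at Tshz1, 10.4 peaks per Mb, was 0 in the territory of 80.3 kb bounded by genes of any type, which hardly exceeds the gene. The densities first set for the protein-coding territory were 17.3 per Mb at Tshz3, where the predicted gene Gm36722 cuts the territory to 348 kb, 17.6 at Tshz2 and 10.4 at Tshz1. Tshz3 was above Tshz2 per Mb with bounds of any gene type (20.6 and 19.6) and with only peaks wider than the minimum (14.4 and 13.8). These Tshz3 values rest on 3 and 5 peaks. Tshz3 was below Tshz2 within 500 kb of the TSS (15 and 19 peaks) and in the other territories. Territories of curated genes, the nearest curated gene and the added peaks inside a gene were chosen after seeing the data. IgG counts were 0 under each alternative tried, although a width filter cannot change a count of 0. Some other alternatives could not change a result either. No member peaks lay within 1 kb of each other, Tshz3 and Tshz1 held no peak in the gene, and every Tshz3 peak was intergenic. The 38 that stayed include these. No paired analysis was possible because each group had 1 library. Depth is unknown, and its part in the length of each list was not tested.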
